A study of Mus musculus with 4 samples.

Results

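Imprinted growth genes are expressed mainly from the copy inherited from 1 parent, and many of them set the size of the fetus. The set described here was a list of 10 symbols: Peg3, Mest, Plagl1, Dlk1, Ndn and Peg10, which are expressed from the paternal copy, and H19, Meg3, Grb10 and Cdkn1c, which in most tissues are expressed from the maternal copy. Of these, 9 had a probe set with a single gene symbol, out of 19938 genes measured, and H19 was not analysed here. The rule lists the members by name and uses no level, but the list was chosen with earlier results of these data known. Each of the 9 had exactly 1 probe set with a single gene symbol.

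Levels were measured on an Affymetrix gene array in C57BL/6 mouse cells kept in culture. There were 4 groups of 1 array each, and the labels name no genetic change in any of them. The groups were embryonic stem (ES) cells, osteoblasts released by trypsin and collagenase from newborn calvariae (the skull vault), and mesenchymal stem cells (MSC), which were flushed from the marrow of femur and tibia and grew attached to plastic. The MSC were grown in serum either without basic fibroblast growth factor (bFGF) or with 1 ng/ml of it, and the series set out to compare the effects of bFGF on these cells, with the other 2 arrays as controls. The labels name no ES line, give no growth protocol for the ES cells and no age for the mice that gave marrow. The adherent MSC were not described as sorted, and the osteoblasts were pooled from the last digestions.

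Imprinting rests on DNA methylation that is set in the egg or sperm and kept through the divisions of the embryo, so that 1 parental copy stays silent. Many imprinted genes are abundant in the fetus and placenta and are switched down together in many organs after birth as growth slows. Plagl1, a zinc finger transcription factor, is known to bind and regulate several of the others, a set often described as the imprinted gene network. A level on an array sums both parental copies, so none of the values below says which copy was read.

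Peg3, Mest, Meg3 and Cdkn1c were high in ES cells, lower in osteoblasts and near or under background in marrow MSC. Plagl1 was highest in osteoblasts, and so was Ndn, though by less than 2-fold over ES cells. Peg3, Mest, Meg3 and Ndn were 2-fold or more lower in both MSC arrays than in each control array. Grb10 had nearly the same level in all 4 arrays, and Peg10 and Dlk1 had patterns of their own. No member differed by 2-fold between MSC grown with and without bFGF. Only 5 of the 9 had signal above background in that comparison, in which 4.56% of all such genes differed. With 1 array per group there was no test and no replicate check, so every difference below is one between 2 arrays, given as a difference of log2 levels, and the spread between cultures is not known.

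**Figure D1:**
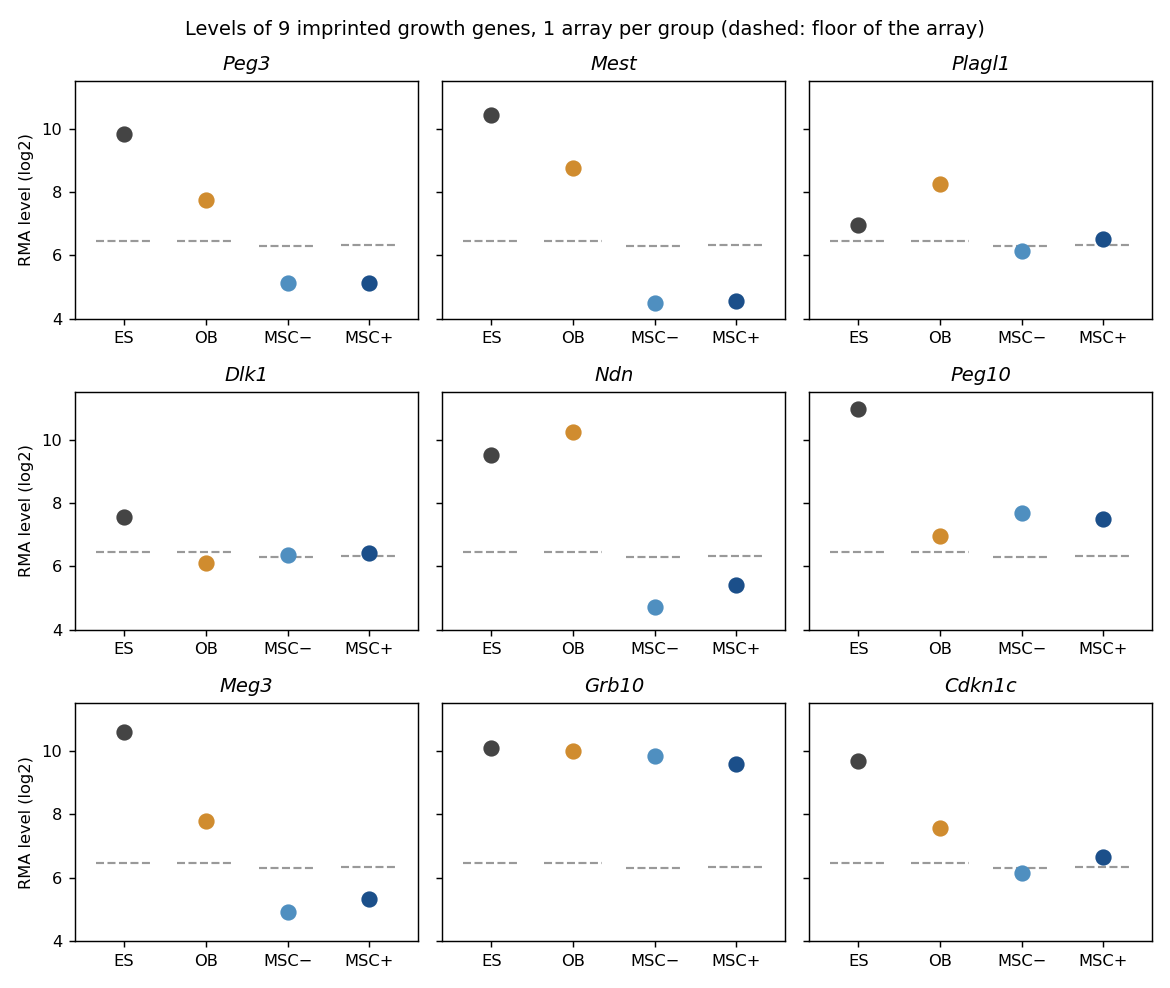
Levels of the 9 genes (y axis, log2 RMA level) in ES cells, osteoblasts (OB) and MSC without (MSC−) and with (MSC+) bFGF, 1 array each, with dashed marks at the floor of each array. Peg3, Mest, Ndn and Meg3 lie above the floor in ES cells and osteoblasts and under it in both MSC arrays, while Grb10 stays between 9.59 and 10.08.

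The 4 genes that were low in both MSC arrays are shown first by their promoters, because they moved together. The windows run from 250 bases before to 50 bases after the RefSeq gene start in the mouse assembly GRCm38.p6 and read 5′ to 3′ along the gene, and for a gene with several starts the window with the most CpG was taken. Capitals mark TGCCGC or its reverse complement GCGGCA, the 6 letters known to be read by Zfp57, a factor that protects the methylation of imprinted regions in the early embryo.
Mest (chr6:30737800-30738099, plus strand): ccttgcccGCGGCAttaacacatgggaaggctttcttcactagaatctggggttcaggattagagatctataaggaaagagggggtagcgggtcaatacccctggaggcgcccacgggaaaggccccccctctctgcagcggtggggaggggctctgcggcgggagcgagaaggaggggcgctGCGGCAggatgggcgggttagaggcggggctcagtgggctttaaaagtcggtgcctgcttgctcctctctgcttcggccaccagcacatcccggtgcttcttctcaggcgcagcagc
Meg3 (chr12:109540746-109541045, plus strand): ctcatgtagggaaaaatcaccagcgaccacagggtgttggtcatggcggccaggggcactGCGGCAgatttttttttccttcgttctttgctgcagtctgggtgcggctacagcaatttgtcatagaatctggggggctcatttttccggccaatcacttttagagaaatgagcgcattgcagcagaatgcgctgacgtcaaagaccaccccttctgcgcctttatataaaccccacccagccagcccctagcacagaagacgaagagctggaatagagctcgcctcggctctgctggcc
Peg3 (chr7:6730370-6730669, minus strand): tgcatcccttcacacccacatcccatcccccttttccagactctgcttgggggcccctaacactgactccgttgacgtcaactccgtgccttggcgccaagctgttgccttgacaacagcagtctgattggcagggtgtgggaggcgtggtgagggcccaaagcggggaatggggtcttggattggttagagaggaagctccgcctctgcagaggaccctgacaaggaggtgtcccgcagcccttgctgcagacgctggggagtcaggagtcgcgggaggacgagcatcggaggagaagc
Ndn (chr7:62348027-62348326, plus strand): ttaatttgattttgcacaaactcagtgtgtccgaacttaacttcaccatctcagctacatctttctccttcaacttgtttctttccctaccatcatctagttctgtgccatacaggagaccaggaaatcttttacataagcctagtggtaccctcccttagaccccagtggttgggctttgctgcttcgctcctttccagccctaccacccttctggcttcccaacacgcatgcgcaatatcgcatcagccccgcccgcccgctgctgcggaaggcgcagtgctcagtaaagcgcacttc
The Mest window held the 6 letters at 2 places and the Meg3 window at 1, and the Peg3 and Ndn windows had no match. RefSeq windows were found for 7 of the 9 genes, and 4 of these 7 (Mest, Meg3, Plagl1 and Grb10) had a match, against 16% of the 15614 measured genes that have a window. The number of CpG was 17 for Mest, 13 for Meg3 and Peg3 and 11 for Ndn, against a median of 16 over the measured genes. The Grb10 window, with 45 CpG, had the most among the 7. These are matches of letters within 300 bases, and methylation was not measured.

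A floor was used to tell signal from background: the median of all probe sets with 1 symbol, which lay at 6.46 in ES cells and in osteoblasts, 6.29 in MSC without bFGF and 6.32 in MSC with bFGF. All 9 members lay above it in ES cells and 8 in osteoblasts, but 3 in MSC without bFGF and 5 in MSC with bFGF. Calls were made at 2-fold (1 on the log2 scale) for genes whose higher level in the pair of arrays exceeded the floor. For a gene whose lower level is under the floor, the size of the difference depends on background.

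Among the paternally expressed genes, Mest (Peg1), a member of the alpha/beta hydrolase fold family whose loss slows fetal growth, had the widest range. It stood at 10.42 in ES cells, 8.76 in osteoblasts, 4.48 in MSC without bFGF and 4.54 in MSC with bFGF. The levels formed 3 steps, with both MSC arrays alike and far under the floor. The difference from ES cells was -5.93 without bFGF, rank 8 from the lowest of 10977 genes, and -5.87 with bFGF, rank 9 of 10932.

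Peg3, a large zinc finger protein needed for normal growth and maternal care, was likewise highest in ES cells and lower in osteoblasts. Its levels were 9.82 in ES cells, 7.74 in osteoblasts, 5.14 in MSC without bFGF and 5.12 in MSC with bFGF. The MSC arrays matched each other and lay under the floor. They differed from ES cells by -4.68 without and -4.70 with bFGF, and from osteoblasts by -2.59 and -2.61.

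Ndn (necdin), a MAGE family protein that restrains cell division, was highest in osteoblasts, by 0.72 over ES cells, which is less than 2-fold. It stood at 10.25 in osteoblasts and 9.53 in ES cells, against 4.71 in MSC without bFGF and 5.42 in MSC with bFGF. Thus Ndn was high in both controls and under the floor in both MSC arrays. The differences from osteoblasts were -5.54 without bFGF, rank 8 from the lowest of 10973 genes, and -4.83 with bFGF, rank 14 of 10798. These correspond to 46.5-fold and 28.5-fold, with the MSC level under the floor.

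Peg10, a protein derived from a retrotransposon and needed for the placenta, was high in ES cells and much lower elsewhere. Its levels were 10.96 in ES cells, 6.96 in osteoblasts, 7.67 in MSC without bFGF and 7.48 in MSC with bFGF. It was the one paternally expressed member whose MSC levels were both clearly above the floor, by 1.38 and 1.16. Osteoblasts were lowest, and the MSC arrays exceeded them by 0.72 and 0.53, which is less than 2-fold. The difference from ES cells was -4.00 in osteoblasts, rank 23 from the lowest of 10927 genes.

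Plagl1 (Zac1), the zinc finger factor of the network, was highest in osteoblasts. It stood at 8.24 there, 6.95 in ES cells, 6.15 in MSC without bFGF and 6.53 in MSC with bFGF. Osteoblasts exceeded ES cells by 1.29 and the MSC arrays by 2.09 and 1.71. The MSC arrays and ES cells differed by -0.80 and -0.42, under 2-fold, and both MSC levels lay within 0.21 of the floor.

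Dlk1, a transmembrane protein with EGF-like repeats that holds back the differentiation of fat cells, had signal mainly in ES cells. Its levels were 7.56 in ES cells, 6.11 in osteoblasts, 6.35 in MSC without bFGF and 6.41 in MSC with bFGF. The osteoblast level was under the floor and the MSC levels lay 0.06 and 0.09 above it, so all 3 low arrays were near background. Both MSC arrays differed from ES cells by 2-fold or more, at -1.21 and -1.15.

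Among the maternally expressed genes, Meg3 (Gtl2), a long noncoding RNA from the same domain as Dlk1, stood at 10.58 in ES cells and 7.77 in osteoblasts. It was at 4.90 in MSC without bFGF and 5.32 in MSC with bFGF, both under the floor. As with Mest, the arrays formed 3 steps. The differences from ES cells were -5.68 and -5.26, rank 11 and rank 16 from the lowest, and -2.81 in osteoblasts.

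Cdkn1c (p57), an inhibitor of cyclin-dependent kinases and a brake on fetal growth, stood at 9.69 in ES cells and 7.56 in osteoblasts. Its levels were 6.15 in MSC without bFGF and 6.64 in MSC with bFGF, on either side of the floor. It was 2-fold or more lower than ES cells in the other 3 arrays, by -2.13 in osteoblasts and by -3.54 and -3.05 in MSC. Against osteoblasts the difference was -1.41 without bFGF and -0.92 with bFGF, and the latter became a 2-fold call when differences were centred on their median.

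Grb10, an adaptor that dampens insulin and IGF signalling and limits fetal growth, stood at 10.08 in ES cells, 9.98 in osteoblasts, 9.83 in MSC without bFGF and 9.59 in MSC with bFGF. Its range over the arrays was 0.49, the smallest among the 9 genes, and 0 of its 6 differences reached 2-fold. Neighbouring arrays in this order differed by -0.10, -0.15 and -0.24. Probe sets of the same gene disagreed in their differences by an SD of 0.29 to 0.42, depending on the pair of arrays, so the order of the Grb10 levels cannot be read.

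**Figure D2:**
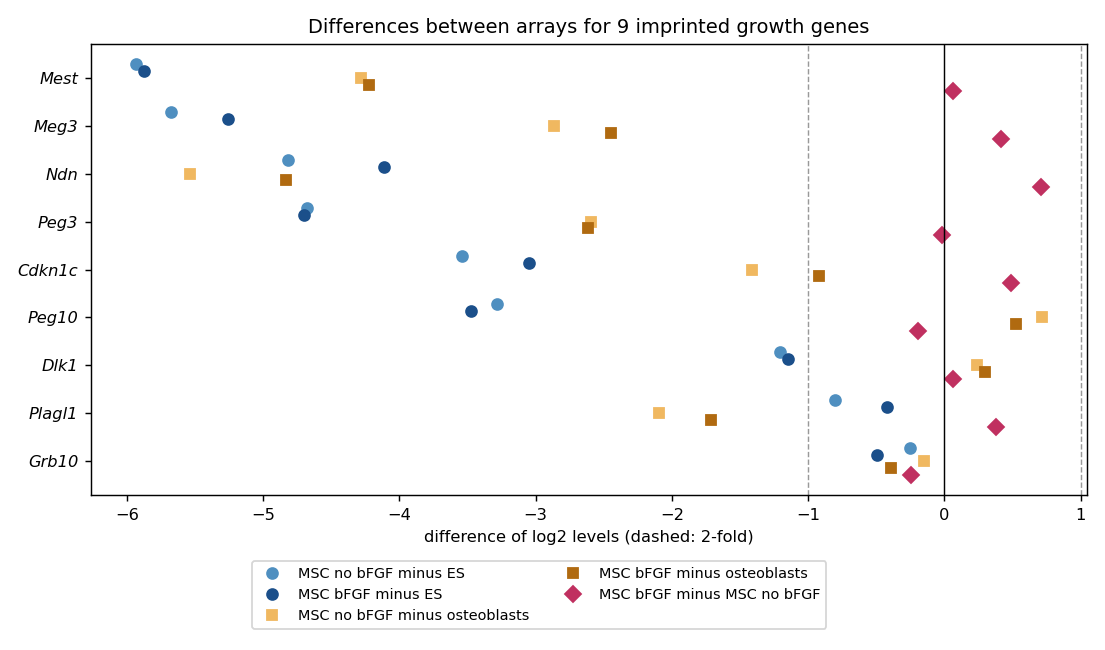
Differences of log2 levels (x axis) for the 9 genes (rows, ordered by MSC without bFGF minus ES cells), with circles for MSC minus ES cells, squares for MSC minus osteoblasts, diamonds for MSC with minus MSC without bFGF and dashed lines at 2-fold. The diamonds lie between -0.24 and 0.71, while Mest, Meg3, Ndn and Peg3 are beyond -2 in all 4 comparisons of MSC with a control.

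Counted together, 7 of 9 members were 2-fold or more lower in MSC without bFGF than in ES cells, and the same number in MSC with bFGF, where 11.8% and 10.6% of all genes above the floor were lower. Against osteoblasts 6 of 9 were lower in MSC without bFGF and 5 of 9 in MSC with bFGF, beside 13.3% and 9.71% of all genes. None of the 9 was 2-fold higher in MSC than in a control. Of all genes 10.4% and 11.3% were higher than in ES cells without and with bFGF, and 8.17% and 7.5% higher than in osteoblasts. In osteoblasts against ES cells 6 of 9 were lower and 1, Plagl1, was higher, beside 8.83% and 12.3%. The median difference of the members was -3.54 and -3.47 against ES cells and -2.09 and -1.71 against osteoblasts (without and with bFGF), where the median of all genes above the floor lay between 0.09 and 0.12. Of the 8 members above the floor in both ES cells and osteoblasts, 4 were 2-fold or more lower in both MSC arrays than in both controls, as were 3.22% of the 8945 genes above the floor in both controls. These comparisons share arrays and are not independent of one another. The members were chosen with earlier results of these data known, so the counts are a description only.

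Between the MSC arrays, 5 of the 9 genes lay above the floor in at least 1 array and 0 of these passed 2-fold, where 4.56% of 10483 genes did. The largest difference was that of Ndn, 0.71 higher with bFGF, with both levels under the floor. Cdkn1c was 0.49, Meg3 0.42 and Plagl1 0.38 higher with bFGF, Dlk1 and Mest 0.06 higher, and Peg3, Peg10 and Grb10 differed by -0.02, -0.19 and -0.24. Receptor genes of smell and pheromone sensing, most of them silent in such cells, differed by -0.97 to 0.67 in the central 95% of 1194 genes, a range that held 8 of the 9 members, with Ndn just outside it. Macrophage markers were higher in the same comparison by a median of 2.84, with 14 of 16 at 2-fold. The members had a median of 0.06, with 4 of the 9 under the floor in both arrays. The part of macrophages in these values was not tested.

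The neighbours of these genes on the chromosome did not all follow them. Sgce, a sarcoglycan gene that shares a promoter region with Peg10 and is also expressed from the paternal copy, ran the opposite way. It stood at 6.98 in ES cells, 8.98 in osteoblasts, 10.14 in MSC without bFGF and 9.61 in MSC with bFGF. Against ES cells Sgce was therefore 2.00, 3.16 and 2.62 higher in the 3 other arrays, in which Peg10 differed from ES cells by -4.00, -3.28 and -3.47.

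Copg2, a coat protein gene beside Mest, was higher in MSC than in ES cells, by 1.02 without and 1.00 with bFGF, where Mest was lowest. Beside Peg3, Usp29 and the zinc finger gene Zim1 were under the floor in all 4 arrays. Near Ndn, Peg12 stood between 6.78 and 7.38 in all arrays, and Magel2 at 6.52 in ES cells was its one level above the floor. Mkrn3, a ring finger gene, was under the floor in all 4 arrays. At the Cdkn1c locus, Phlda2, a brake on placental growth, stood at 8.28 in ES cells and between 5.25 and 5.62 elsewhere, and Slc22a18 between 6.41 and 7.08.

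**Figure D3:**
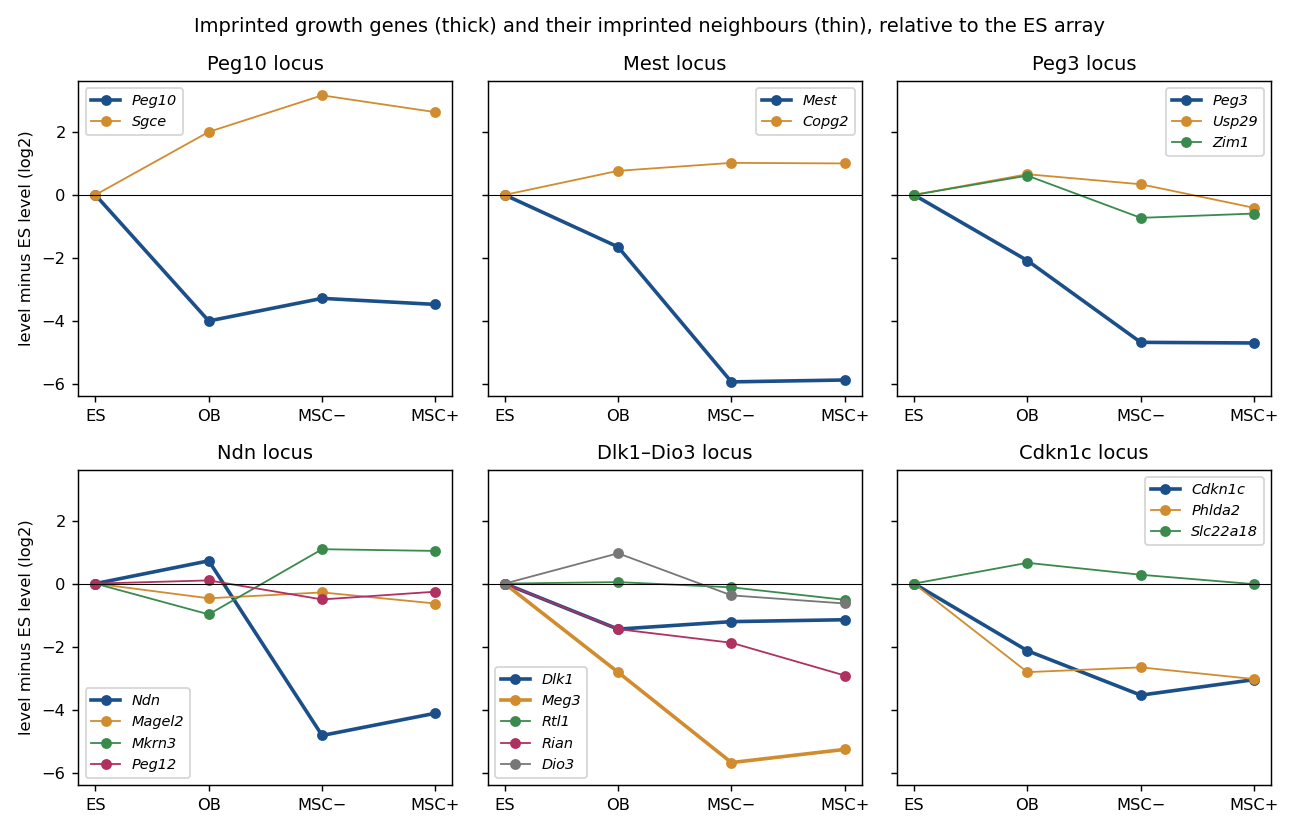
Level minus the level in ES cells (y axis, log2) for imprinted growth genes (thick lines) and imprinted genes of the same locus (thin lines) in the 4 arrays, where lines only join the points of 1 gene. Sgce lies above 0 in the 3 other arrays and Peg10 below, and Meg3 and Rian lie below Rtl1 and Dio3.

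The domain that holds Dlk1 and Meg3 also encodes a long series of small RNAs on the maternal copy, with Dio3, a thyroid hormone inactivating enzyme, at its far end. Because Meg3 had a wide range, the other probe sets of this domain were read too, a choice made after the values of Meg3 were seen. Rian, a noncoding RNA downstream of Meg3, stood at 6.31 in ES cells, 4.87 in osteoblasts, 4.44 in MSC without bFGF and 3.40 in MSC with bFGF, under the floor in all 4 arrays. A further probe set shared by Rian and a small nucleolar RNA had 7.72 in ES cells and 4.53 to 5.34 elsewhere, so its signal was above the floor in ES cells alone. Rtl1 and Dio3, which come from the paternal copy, were under the floor in all 4 arrays.

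Of 40 probe sets named for a microRNA of this domain, 14 lay above the floor in ES cells and 7 in each of the other arrays. In the ES array 4 of these 14 were 2-fold or more higher than in each of the 3 other arrays, as were 5.4% of all genes above the floor in ES cells, and 0 of 36 microRNA probe sets from elsewhere in the genome. The microRNAs of the domain had a median of -0.38 in osteoblasts minus ES cells, -0.49 in MSC without bFGF and -0.65 in MSC with bFGF, against -0.05, 0.05 and -0.07 for 256 other microRNA probe sets. Most of the 40 were under the floor in every array, and a probe set over a hairpin reads RNA from that stretch, not the mature microRNA.

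The mature forms that RefSeq (GRCm38.p6) gives for these 4 hairpins are shown because their probe sets, named for a single microRNA, lay above the floor in ES cells and 2-fold or more over each other array there. In each the seed (bases 2 to 8), the part that pairs with targets, is in capitals.
miR-127-5p (chr12:109592854-109592875, plus strand): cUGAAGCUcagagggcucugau
miR-127-3p (chr12:109592888-109592909, plus strand): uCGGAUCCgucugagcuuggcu
miR-329-5p (chr12:109713503-109713524, plus strand): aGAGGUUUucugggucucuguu
miR-329-3p (chr12:109713541-109713562, plus strand): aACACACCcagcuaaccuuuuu
miR-679-5p (chr12:109715587-109715608, plus strand): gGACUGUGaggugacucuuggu
miR-679-3p (chr12:109715624-109715645, plus strand): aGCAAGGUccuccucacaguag
miR-487b-5p (chr12:109727347-109727367, plus strand): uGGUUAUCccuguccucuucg
The 7 mature forms had 7 different seeds. Mir127 lies antisense to Rtl1. Its probe set stood at 6.83 in ES cells, 5.64 in osteoblasts, 5.28 in MSC without bFGF and 5.31 in MSC with bFGF. Mir487b had 6.68 in ES cells and 4.22 to 5.48 elsewhere, Mir329 had 6.73 against 5.36 to 5.60, and Mir679 had 7.50 against 5.96 to 6.29. In all 4 hairpins ES cells alone lay above the floor, which follows largely from how the hairpins were chosen and is no separate result.

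**Figure D4:**
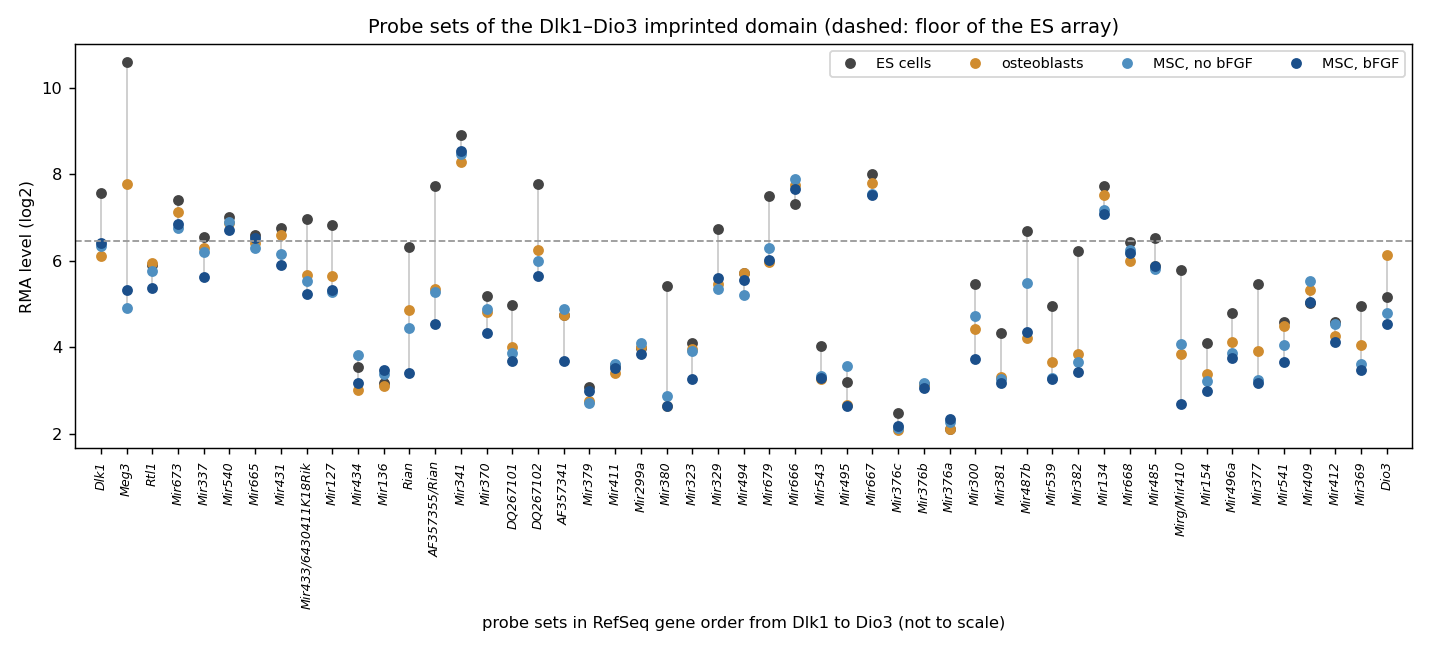
Level (y axis, log2) of 51 probe sets in RefSeq gene order from Dlk1 to Dio3 (x axis, not to scale), 1 point per array, with a dashed line at the ES floor. The ES point of Meg3, at 10.58, is the highest on the plot, and Rtl1, the probe set of Rian alone and Dio3 lie under the line in all 4 arrays.

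Other imprinted genes formed a list of 51 symbols, of which 41 were measured. Against ES cells 7 of the 41 were 2-fold or more lower and 3 higher in MSC without bFGF, with a median of -0.28, and 8 were lower and 3 higher in MSC with bFGF, with a median of -0.50. Of all genes above the floor 11.8% and 10.6% were lower and 10.4% and 11.3% higher, without and with bFGF. Only 24 of the 41 lay above the floor in these comparisons, where all 9 members did. Only these 24 could be called, so the shares of all genes are to be set beside 24 and not 41. Slc38a4, an amino acid transporter of the placenta, stood at 11.20 in ES cells and at 5.78, 4.77 and 4.66 in osteoblasts and MSC without and with bFGF. Zdbf2, a paternally expressed gene linked to growth after birth, had 8.10, 6.25, 4.10 and 3.94 in the same order. Nnat, a small membrane protein, differed from ES cells by -2.77, -2.92 and -2.39. All 3 genes lay above the floor in ES cells alone.

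The growth factor Igf2, which is imprinted oppositely to its neighbour H19, stood at 9.12 in ES cells, 8.82 in osteoblasts, 6.25 in MSC without bFGF and 6.43 in MSC with bFGF. It was high in both controls, and its MSC levels lay on either side of the floor. Igf2r, the receptor that clears IGF2 and is expressed from the maternal copy, was above the floor in all 4 arrays, between 9.50 and 10.68.

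Against osteoblasts 4 of the 41 other genes were 2-fold or more lower and 2 higher in MSC without bFGF. In MSC with bFGF 5 were lower and 2 higher. In both comparisons 20 of the 41 lay above the floor, and only these could be called. Of all genes above the floor 13.3% and 9.71% were lower and 8.17% and 7.5% higher, without and with bFGF. Those lower in both were Igf2, the serotonin receptor gene Htr2a (-2.03 and -1.95 without and with bFGF) and the chloride channel gene Ano1 (-1.68 and -1.75). Commd1, a copper and NF-kB regulator, was higher in both, by 1.43 and 1.16. Between the MSC arrays 18 of the 41 lay above the floor and 1 passed 2-fold, beside 4.56% of 10483 genes. This was Gatm, an enzyme of creatine synthesis. It stood at 8.11 in MSC with bFGF, 5.68 in MSC without bFGF, 7.49 in osteoblasts and 5.95 in ES cells.

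Factors that set or keep imprints were mostly higher in ES cells. Of 12 such genes, all measured, 8 were 2-fold or more lower in each MSC array than in ES cells and 6 in osteoblasts, beside 11.8%, 10.6% and 8.83% of all genes above the floor in MSC without bFGF, MSC with bFGF and osteoblasts. The de novo methyltransferase Dnmt3b stood at 9.89 in ES cells and between 5.40 and 5.49 elsewhere, and its cofactor Dnmt3l at 7.26 and at most 5.28. Zfp57 had 8.88 in ES cells, 6.15 in osteoblasts, 7.71 in MSC without bFGF and 7.62 in MSC with bFGF, so that osteoblasts were lowest. Uhrf1, which guides maintenance methylation to new DNA, was 1.25 higher in MSC with bFGF than without, at 6.78 against 5.54, which is under the floor.

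By the distance between centred levels over the 4 arrays, the genes nearest to Mest included other members. Mest was taken because it had the widest range, and likeness was the Euclidean distance between levels centred on each gene's mean over the 4 arrays, among 11225 genes. The 5 nearest were the growth-limiting glypican Gpc3 (distance 1.17), the metalloproteinase Mmp3 (1.17), Meg3 (1.33), the quinone reductase Nqo1 (1.39) and Peg3 (1.46). Gpc3 stood at 10.66, 8.20, 5.56 and 4.93 in ES cells, osteoblasts and MSC without and with bFGF. Ndn was at rank 15 and Cdkn1c at rank 107, while Peg10, Plagl1, Dlk1 and Grb10 lay between rank 709 and rank 2653. The distance depends on the size of the differences as well as on the order of the arrays. A likeness over 4 arrays is a description of these arrays.

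Markers of other cell types also differed between the arrays. Pluripotency markers lay above the floor for 10 of 13 genes in ES cells and for 0 or 1 in the others. The ES array also had 15 of 17 fibroblast markers above the floor, with a median level of 8.64, against 9.99 in osteoblasts, 8.05 in MSC without bFGF and 7.51 in MSC with bFGF. Fibroblast markers were lower in MSC than in osteoblasts by a median of -2.14 and -2.70 (without and with bFGF), in the comparison where the imprinted growth genes had -2.09 and -1.71, and their part in that result was not tested. Against ES cells the fibroblast medians were -0.62 and -1.21, and those of the imprinted growth genes -3.54 and -3.47. Each MSC array itself had 13 of 17 fibroblast markers above the floor, and the part of fibroblasts in this comparison was not tested either.

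Macrophage markers were above the floor for 16 of 16 genes in osteoblasts, 14 in MSC with bFGF, 13 in ES cells and 9 in MSC without bFGF, with median levels of 11.20, 9.70, 7.40 and 6.70. The MSC arrays thus differed widely in macrophage markers and little in the imprinted growth genes, 4 of which were under the floor in both. Osteoblast markers had 1 of 7 measured genes above the floor in osteoblasts, Dlx5 at 7.49, while Alpl, Sp7 and Ibsp were under it. Of 12 measured markers of MSC and stroma, 10 lay above the floor in osteoblasts and in MSC with bFGF. In ES cells 7 did, and in MSC without bFGF 6. Their median levels were 7.71 in osteoblasts, 6.98 in MSC with bFGF, 7.08 in ES cells and 6.30 in MSC without bFGF. Markers of trophoblast and early endoderm had 7 of 10 genes above the floor in ES cells and 0 or 1 elsewhere. In arrays of whole cultures, fewer cells of a type and less RNA per cell cannot be told apart, and the part of these cell types in the levels of Mest, Peg3, Meg3 and Ndn was not tested.

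**Figure D5:**
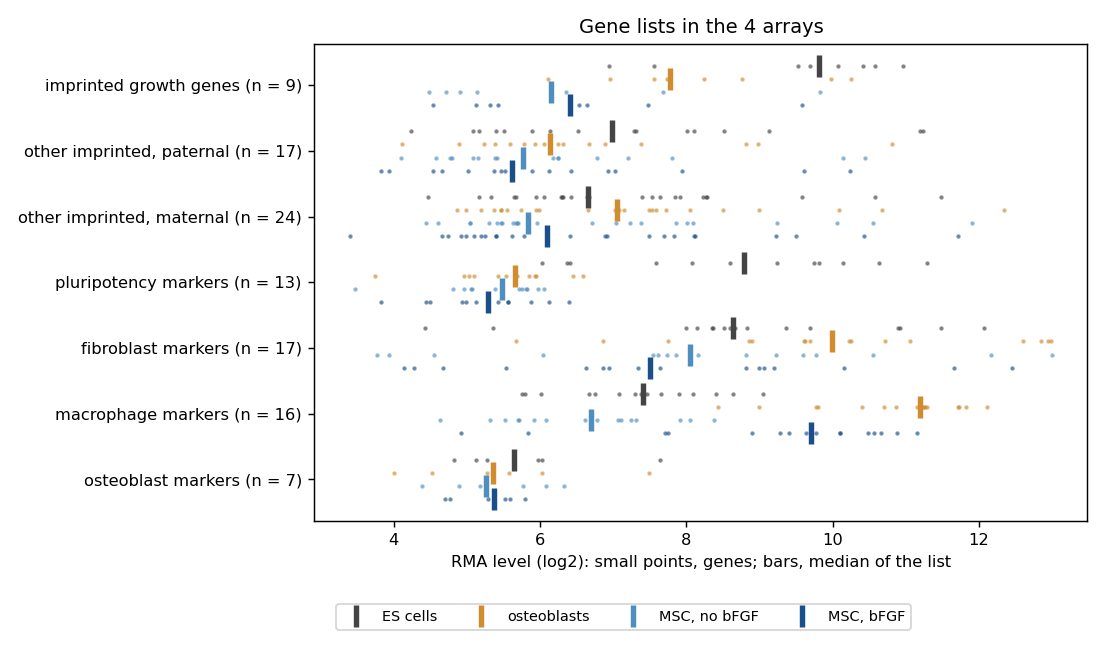
Levels (x axis, log2) of the genes of 7 lists (rows) in the 4 arrays, with small points for genes and thick bars for the median of the list. The median of the imprinted growth genes is 9.82 in ES cells, 7.77 in osteoblasts, 6.15 in MSC without bFGF and 6.41 in MSC with bFGF, and the macrophage median is lowest in MSC without bFGF.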

How the data were processed

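The values were log2 levels per probe set and array, as deposited by the authors. Per the submitters' processing notes the tools were Affymetrix Expression Console and RMA, which corrects background, equalises the distributions of the arrays and summarises probes. Their range, 1.40 to 14.28, is the basis for reading them as log2. Their versions, the genome build and the annotation are not stated in those notes. RMA hides a general change in transcripts per cell, and differences are compressed near the floor. Precision is limited by the number of arrays.

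Of 35556 probe sets 21789 had 1 gene symbol in the platform table, and each of 19938 genes took its probe set with the highest mean. The members, gene lists and settings were chosen with earlier results of these data known. With 1 array per group no test was made. All members were described, and other listed genes were named if they neighbour a member or were among the 4 largest 2-fold differences each way of their list. Where several qualified, only some were named. Igf2r was named whatever its values, and Sp7 and Ibsp were named after their values were seen. Counting was tested on simulated data. Promoter and microRNA sequences came from RefSeq tables of GRCm38.p6, which also gave the gene order of the Dlk1 domain. Alternatives were the mean of probe sets, leaving out the floor, setting it at the 75th percentile, 1.5-fold and 4-fold thresholds, centring, removal of a loess curve (span 0.3) and repeated quantile normalization. The scripts ran in Python 3.11.15 with statsmodels 0.14.6, pandas 2.3.3 and numpy 2.4.6.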

Additional observations from a re-analysis of the deposited data

How the results depend on the processing

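The counts of members at 2-fold were recomputed under 8 alternatives for each of 6 comparisons, 48 counts in all, and 45 stayed within 1.5 times the value reported. With a floor at the 75th percentile, 3 members in place of 5 were counted in MSC with bFGF against osteoblasts and 3 in place of 6 in MSC without bFGF against osteoblasts, since only 4 members lay above that floor. At 4-fold, 4 in place of 7 were counted in osteoblasts against ES cells. In MSC with against without bFGF the count was 0 under all 8 alternatives. The 54 differences of single members moved by at most 0.20 on the log2 scale under centring, loess, repeated quantile normalization and the mean of probe sets, and 0 of the called ones changed sign. The mean of probe sets changed no member, since each had 1. No paired analysis was possible because each group had 1 array. Signal over background limits the MSC values of Peg3, Mest, Meg3 and Ndn, which lay under the floor in both arrays.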
